A study of Homo sapiens with 8 samples.

Results

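The genes described here are 40 genes of mitosis, the stage of the cell cycle in which the copied chromosomes are separated and the cell divides. They were chosen by name, by matching the 60666 Ensembl gene IDs of the count table to gene symbols and taking 40 listed genes whose products work in mitosis. All 40 were found, and 39 of them passed the level filter of the test, a mean of at least 1 CPM (a count scaled by the size of its library). CENPA, which encodes the histone variant that marks centromeres, stayed below it and is given by its values alone. RNA was sequenced from MRC5, a line of human lung fibroblasts. The cells had been transduced with shMock, the control, or with shMTHFD2, a hairpin against MTHFD2, and each line was sampled without TGF-β1 (control) and with it. TGF-β1 is the cytokine that drives fibroblasts toward a contractile, matrix-producing state, and the labels give 4 ng for 24 h with no volume. The control libraries carry the same treatment wording, and the groups were therefore taken from the titles. The 4 groups are therefore shMock control, shMock TGF-β1, shMTHFD2 control and shMTHFD2 TGF-β1, with 2 libraries in each, called here library 1 and library 2. A single hairpin stands for the knockdown, neither line is said to be a clone, and nothing says whether the 2 libraries of a group came from separate cultures. The p-values therefore rest on a spread between libraries that may be technical only, and MTHFD2 loss and other differences between the lines cannot be told apart.

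Mitosis begins when the kinase CDK1, bound to its cyclins, becomes active. Spindle microtubules then capture the chromosomes through their kinetochores, and a checkpoint holds the cell until each chromosome is attached. The anaphase-promoting complex, a ubiquitin ligase, ends the wait by marking securin and the cyclins for destruction, and motors and crosslinkers of the central spindle lead into the cleavage of the cell. Most mitosis genes are transcribed from late S phase to mitosis, so their level in a bulk sample depends on how many cells are dividing. Fewer dividing cells and less of these mRNAs in each dividing cell cannot be told apart in these libraries.

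Library totals ran from 18162738 to 22221927 counts. Each level given in CPM was scaled on the total times the library's TMM factor, the scaling factor of edgeR (0.914 to 1.07). The level filter used the totals without this factor. On the scale of the levels, 3 counts, used as the floor, stand for 0.135 to 0.172 CPM. The tested mitosis genes held between 7 and 865 counts in a library. MTHFD2, the targeted gene, stood at 58.8 and 57.1 CPM in shMock control, 14.9 and 18.7 in shMTHFD2 control, 256 and 258 in shMock TGF-β1, and 93.8 and 91.9 in shMTHFD2 TGF-β1, so each shMTHFD2 pair lay below its shMock pair. The genotype labels of 3 shMTHFD2 libraries name other MTHFD genes, so groups were taken from the titles. The extraction text of all 8 libraries speaks of another cell line and hairpin, and the cell line was taken from the other labels. All 9 fibroblast markers were present, with a summed level of 30600 to 54300 CPM. The 7 epithelial markers summed to at most 0.23 CPM, with KRT5, KRT14, KRT19 and SFTPC at 0 in all 8 libraries. The endothelial sum was 96.8 to 110 CPM without TGF-β1 and 40.8 to 48.9 with it, but the defining PECAM1 and CDH5 were at 0 in all 8 libraries. The 4 markers of mesothelium and smooth muscle summed to 0.672 to 2.17 CPM.

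As a whole the 40 genes were most abundant in shMock control and least abundant in shMTHFD2 TGF-β1. Their summed level was 356 and 371 CPM in shMock control (364 ± 10.3, SD, n = 2), 273 and 220 in shMock TGF-β1 (246 ± 36.8), 245 and 255 in shMTHFD2 control (250 ± 7.0), and 151 and 170 in shMTHFD2 TGF-β1 (160 ± 13.6). The first group lay above all other libraries and the last below them, while the 2 middle groups overlapped. Of the 40 genes, 35 had their highest group mean in shMock control and 35 had their lowest in shMTHFD2 TGF-β1. This was not counted over all tested genes, so it cannot be called particular to the 40. The summed level differed most between the 2 libraries in shMock TGF-β1. In that group library 1 was above library 2 for 32 of the 40 genes, with a median log2 ratio of 0.32, whereas 52.1% of all tested genes were higher in library 1. The corresponding numbers of genes higher in library 1 were 15 in shMock control, 19 in shMTHFD2 control and 15 in shMTHFD2 TGF-β1. The part of this replicate difference in the results was not tested, and the counts without each library are given below.

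**Figure D1:**
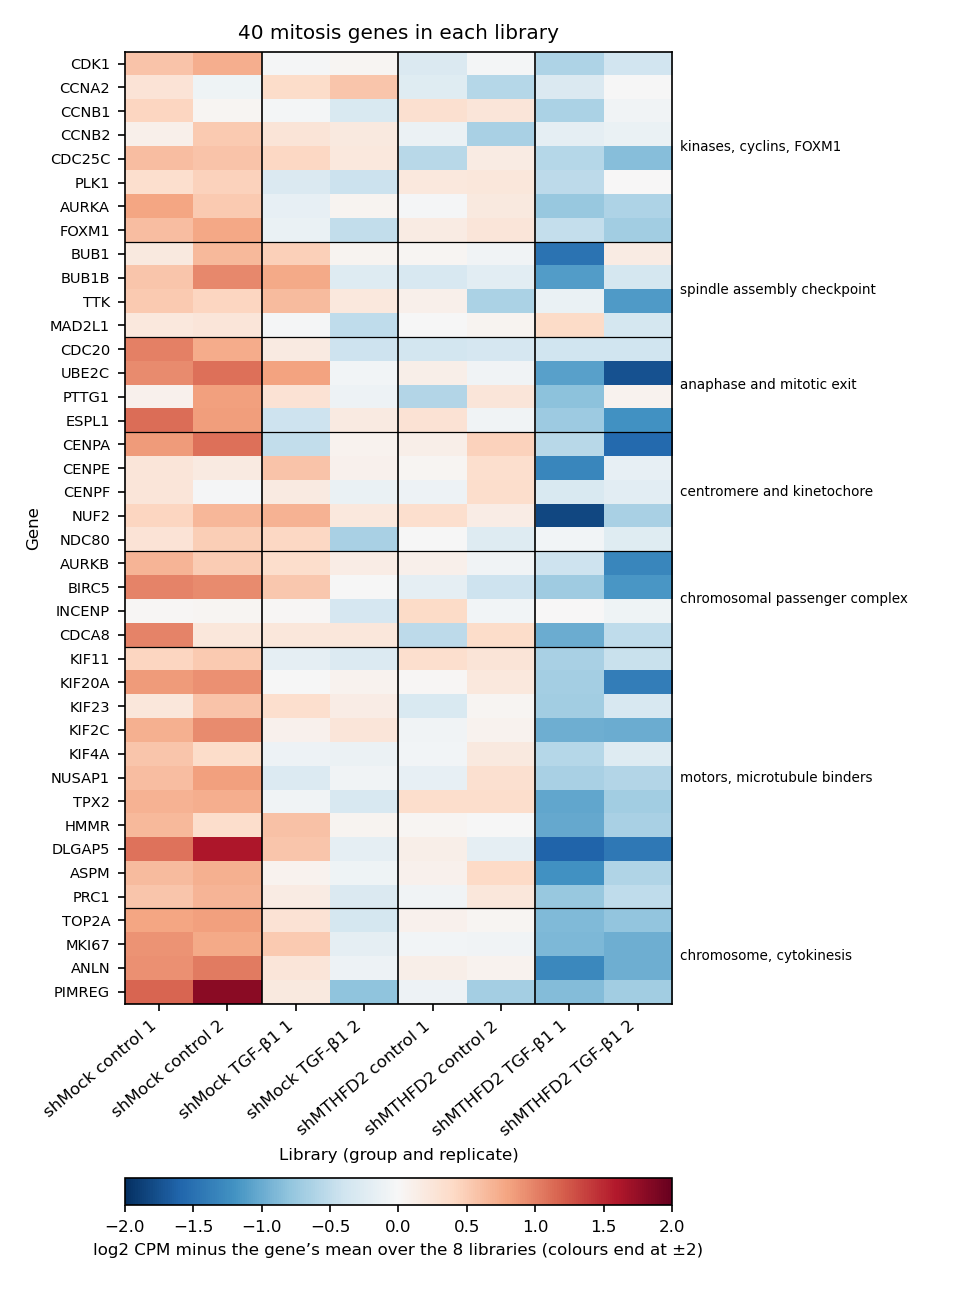
Level of each of the 40 mitosis genes (rows, by role) in each of the 8 libraries (columns), as log2 CPM minus the gene's mean over the libraries; red is above and blue below that mean, and colours end at ±2. Most rows are red in the shMock control columns and blue in the shMTHFD2 TGF-β1 columns, and 35 of 40 genes had their highest and 35 of 40 their lowest group mean there. The share of all tested genes with this order was not counted.

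Per kilobase of exon, which allows genes to be compared, the mean level over the 8 libraries ran from 0.343 CPM per kb for ESPL1 (separase, the protease that cuts cohesin) to 4.37 for TPX2, with a median of 1.04. After TPX2, which nucleates spindle microtubules, came TOP2A, the topoisomerase that untangles sister chromatids, at 3.82 and the cyclin CCNA2 at 3.67. FOXM1, a transcription factor of mitosis genes, followed at 3.51 and the contractile ring scaffold ANLN at 3.12. MKI67, the Ki-67 proliferation antigen, reached 0.654 on this scale. CENPA, DLGAP5 and NUF2 were among the lowest, at 0.347, 0.429 and 0.481.

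Many mitosis genes share 2 short promoter elements, the CCAAT box and the cell cycle genes homology region (CHR), through which they are held back in resting cells and switched on late in the cycle. RefSeq promoters of 300 bases, from 250 before to 50 after a transcription start (GRCh38.p14), were matched by symbol for 33 of the 40 genes, with 39 promoters in all. CHR was searched as TTTGAA or TTCGAA and the CCAAT box as CCAAT, both on either strand and with overlaps allowed. CHR letters were found in 26 of the 33 genes (78.8%), against 19.5% of the 27305 symbols of the promoter table. CCAAT was found in 27 of 33 (81.8%, against 39.7%), at least 2 copies in a promoter of 18 (54.5%, against 12.9%), and both elements in 22 (66.7%, against 7.85%). Among the 10304 symbols of tested genes in the promoter table, 15.5% had CHR letters and 43.2% had CCAAT. At least 2 copies of CCAAT were found in 16.3% of these and both elements in 6.36%. Of 38 CHR matches, 31 began at or after 100 bases before the start, and 43 of 67 CCAAT matches lay in the 100 bases before it. CENPE and KIF2C had neither element in the window. CCNA2, CCNB1, AURKB, KIF20A and PTTG1 had CCAAT without CHR letters, and ANLN, BUB1B, NDC80 and NUF2 CHR letters without CCAAT. The 250 bases before the start are shown for the 4 genes in the table with the lowest adjusted p for TGF-β1 in shMock. Capitals mark CHR letters (TTTGAA, or TTCAAA where the element is on the other strand) and CCAAT boxes (CCAAT, or ATTGG on the other strand). The windows are chr7:36389612-36389861 on the plus strand for ANLN, chr17:40417897-40418146 on the minus strand for TOP2A, chr10:92592880-92593129 on the plus strand for KIF11 and chr15:90994536-90994785 on the minus strand for PRC1.
ANLN: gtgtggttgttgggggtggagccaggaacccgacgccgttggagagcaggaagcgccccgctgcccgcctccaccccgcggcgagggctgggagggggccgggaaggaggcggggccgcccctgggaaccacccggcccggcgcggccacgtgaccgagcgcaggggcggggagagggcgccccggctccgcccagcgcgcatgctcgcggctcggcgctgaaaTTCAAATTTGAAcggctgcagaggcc
TOP2A: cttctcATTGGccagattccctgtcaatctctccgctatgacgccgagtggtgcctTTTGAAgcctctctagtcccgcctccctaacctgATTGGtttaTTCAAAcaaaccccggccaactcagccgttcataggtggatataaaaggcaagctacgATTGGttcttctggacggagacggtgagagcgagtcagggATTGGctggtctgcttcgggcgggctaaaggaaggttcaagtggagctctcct
KIF11: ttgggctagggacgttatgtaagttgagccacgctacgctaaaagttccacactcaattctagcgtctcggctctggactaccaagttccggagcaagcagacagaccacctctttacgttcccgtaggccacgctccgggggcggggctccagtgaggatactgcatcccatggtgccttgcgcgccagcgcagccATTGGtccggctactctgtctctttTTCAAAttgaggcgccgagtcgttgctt
PRC1: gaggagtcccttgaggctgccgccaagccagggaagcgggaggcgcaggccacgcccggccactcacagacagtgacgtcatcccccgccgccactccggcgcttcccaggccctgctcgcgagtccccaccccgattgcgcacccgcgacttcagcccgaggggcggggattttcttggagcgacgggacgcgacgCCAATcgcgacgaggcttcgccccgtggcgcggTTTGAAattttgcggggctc

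In ANLN 2 CHR matches lie side by side, with their first bases at -26 and -20 relative to the start, and no CCAAT is present. KIF11 and PRC1 each have 1 match of either element, a CCAAT box at -53 and CHR letters at -28 in KIF11 and -20 in PRC1. TOP2A has CCAAT boxes at -244, -160, -93 and -53, with CHR letters at -194 and -151. These are matches of letters only.

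The first contrast sets the knockdown line beside the control line while both receive TGF-β1. In it, 13 of the 39 tested mitosis genes were lower in shMTHFD2 (edgeR adjusted p under 0.05 over all 13493 genes tested) and none was higher, against 8.23% of all tested genes called lower and 4.83% called higher. They were the cytokinesis and chromosome genes ANLN, TOP2A and MKI67, the spindle genes KIF23, TPX2, DLGAP5, KIF2C, HMMR and ASPM, and BIRC5, UBE2C, NUF2 and CCNA2. The median log2 fold change of the 39 was -0.71, against 0.01 for all tested genes. Of the 39, 36 lay below 0, as did 6609 of the 13493 tested genes. For 29 of the 39 both shMTHFD2 libraries lay below both shMock libraries, a pattern shown by 27.4% of all tested genes. The standard error (SE) of a log2 fold change among them ran from 0.15 to 0.49 with a median of 0.32, so a gene needed a change well above that to pass. The 13 called genes had a median log2 fold change of -1.15, and the 26 others ran from -1.05 to 0.31 with a median of -0.47.

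Without TGF-β1, the same contrast between the lines gave 9 lower and 0 higher of 39, against 8.19% of all tested genes called lower and 3.25% called higher. These 9 were CDK1, FOXM1, CDC20, BIRC5, DLGAP5, TOP2A, MKI67, ANLN and PIMREG. The median was -0.58 against -0.01 for all tested genes, and 33 of the 39 had both shMTHFD2 libraries below both shMock libraries (30.1% of all tested genes). TGF-β1 was followed by lower levels in each line. In shMock 16 of 39 were lower with TGF-β1, against 18.1% of all tested genes, with a median of -0.58 against -0.02. In shMTHFD2 13 of 39 were lower with TGF-β1, against 11.0% of all tested genes, with a median of -0.70 against -0.01. No mitosis gene was called higher in either line, against 17.3% of all tested genes in shMock and 12.8% in shMTHFD2. Both TGF-β1 libraries lay below both control libraries for 26 of 39 in shMock (36.0% of all tested genes) and for 30 of 39 in shMTHFD2 (30.4%), and CCNA2 in shMock was the single gene with both TGF-β1 libraries above.

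The contrasts share libraries, so they are set side by side and not correlated. Between the lines, 5 genes were called lower both with and without TGF-β1, namely ANLN, BIRC5, DLGAP5, MKI67 and TOP2A, which are 38.5% of the calls with TGF-β1 and 55.6% of those without. For TGF-β1, 11 genes were called lower in both lines, which are 68.8% of the calls in shMock and 84.6% of those in shMTHFD2. They were ANLN, ASPM, AURKA, DLGAP5, ESPL1, FOXM1, KIF11, MKI67, PRC1, TOP2A and TPX2. Over the 4 contrasts between groups, ANLN, DLGAP5, MKI67 and TOP2A were called lower in all 4, ASPM, FOXM1 and TPX2 in 3, 10 genes in 2, 6 in 1 and 17 in none. These overlaps and tallies were not counted over all tested genes, so they cannot be called particular to the mitosis genes. Whether the TGF-β1 response differed between the lines was tested by the interaction. None of the 39 passed it in edgeR (lowest adjusted p = 0.38), and 1 of them, CENPE, had an unadjusted p under 0.05. Of all tested genes 0.0889% passed the interaction in either direction. DESeq2 gave no adjusted p to any of the 39 in the interaction. The median interaction was -0.14 with single genes from -1.29 (NUF2) to 1.31 (PIMREG) and SEs with a median of 0.44.

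**Figure D2:**
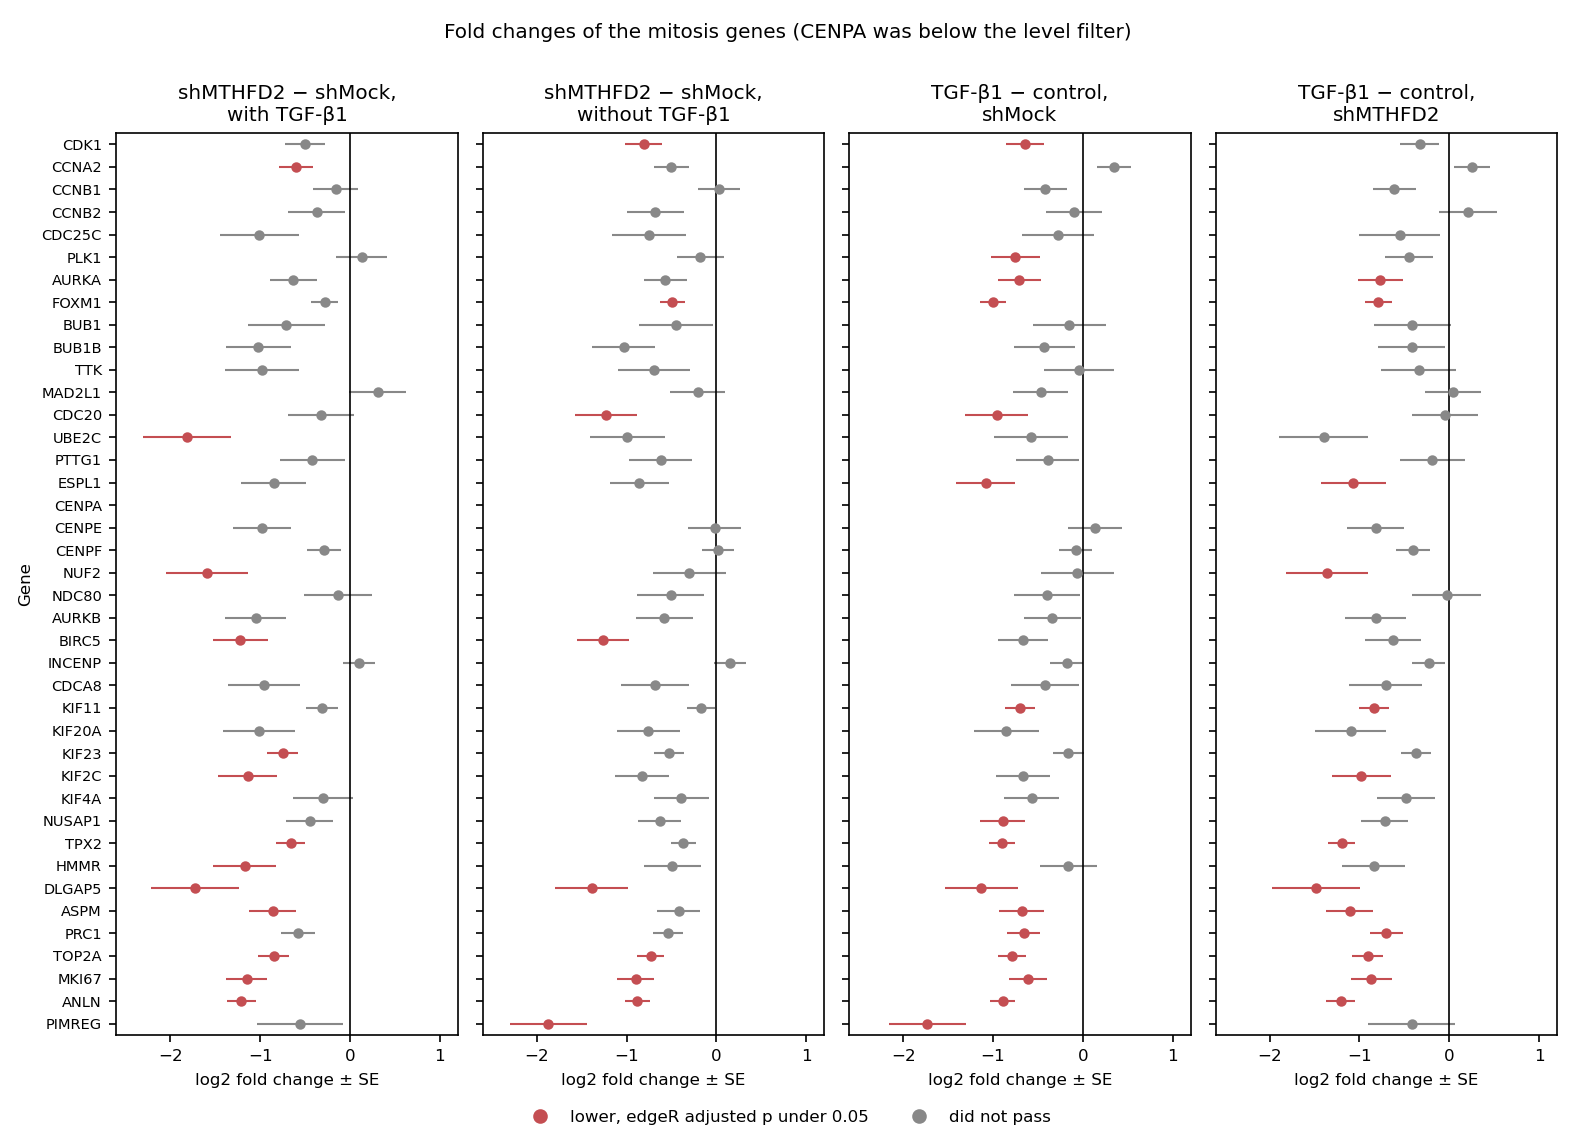
Log2 fold change (point) and SE (bar) of each mitosis gene in the 4 contrasts between groups; red points are lower at an edgeR adjusted p under 0.05 and grey points did not pass. Most points lie left of 0 in each panel, with 13, 9, 16 and 13 red points of 39, and CENPA has no point because it was below the level filter.

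The first role group holds the engine of mitotic entry: the kinase CDK1, its cyclins CCNA2, CCNB1 and CCNB2, the activating phosphatase CDC25C, the kinases PLK1 and AURKA, and the transcription factor FOXM1. Of these 8, CCNA2 alone was lower in shMTHFD2 with TGF-β1, CDK1 and FOXM1 were lower without it, and with TGF-β1 CDK1, PLK1, AURKA and FOXM1 were lower in shMock and AURKA and FOXM1 in shMTHFD2. Calls in each role group stand against 8.23, 8.19, 18.1 and 11.0% of all tested genes called lower, in the order of contrasts above. CCNA2 (ENSG00000145386; GRCh38 chromosome 4, 121816444 to 121823933, minus strand) stood at 12.1 and 9.37 CPM in shMock control, 12.8 and 14.6 in shMock TGF-β1, 8.47 and 6.72 in shMTHFD2 control, and 8.17 and 9.91 in shMTHFD2 TGF-β1. The shMock TGF-β1 libraries were the highest, and both contrasts between the lines were free of overlap. Its log2 fold change between the lines with TGF-β1 was -0.60 (SE 0.19, edgeR adjusted p = 0.049), and that for TGF-β1 was 0.35 in shMock (edgeR adjusted p = 0.16) and 0.25 in shMTHFD2 (edgeR adjusted p = 0.41), so CCNA2 did not share the lower level with TGF-β1 seen in most of the 39. Exons of CCNA2 overlap EXOSC9 on the opposite strand, and its call was lost without any 1 of the 4 TGF-β1 libraries (edgeR adjusted p up to 0.24), with scaling on library totals (0.083) and with GC and length offsets (0.10).

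AURKA (ENSG00000087586; chromosome 20, 56369389 to 56392337, minus strand), the kinase of the spindle poles, stood at 8.04 and 6.66 CPM in shMock control, 4.16 and 4.82 in shMock TGF-β1, 4.58 and 5.32 in shMTHFD2 control, and 2.76 and 3.05 in shMTHFD2 TGF-β1. Its levels stepped down with the hairpin and with TGF-β1, with no overlap in any of the 4 contrasts. The 1.54-fold difference between the lines with TGF-β1 did not pass (-0.63, SE 0.26, edgeR adjusted p = 0.13), whereas AURKA fell with TGF-β1 by 0.71 in shMock and by 0.77 in shMTHFD2 on the log2 scale (SE 0.24 and 0.25, edgeR adjusted p = 0.032 and 0.039). FOXM1 stood at 24.9 and 27.5 CPM in shMock control, 14.7 and 11.5 in shMock TGF-β1, 18.2 and 19.1 in shMTHFD2 control, and 11.6 and 10 in shMTHFD2 TGF-β1. Both TGF-β1 groups were below both control groups. FOXM1 fell 1.99-fold with TGF-β1 in shMock (edgeR adjusted p = 7.5e-05) and 1.73-fold in shMTHFD2 (edgeR adjusted p = 0.00097), and both calls held in all 8 fits that left out 1 library. Between the lines FOXM1 was 1.40-fold lower without TGF-β1 (edgeR adjusted p = 0.036), while with it the libraries of the lines overlapped (-0.28, edgeR adjusted p = 0.26).

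CDK1 was 1.75-fold lower in shMTHFD2 without TGF-β1 (5.40 ± 0.625 against 9.45 ± 0.722 CPM, edgeR adjusted p = 0.022) and 1.56-fold lower with TGF-β1 in shMock (6.06 ± 0.200 CPM, edgeR adjusted p = 0.027). PLK1, a kinase of spindle assembly and mitotic exit, fell 1.68-fold with TGF-β1 in shMock (edgeR adjusted p = 0.042) and was at 0.13 between the lines with TGF-β1. The B cyclins did not pass in any contrast. CCNB1 was at -0.16 and 0.03 between the lines with and without TGF-β1 and at -0.61 with TGF-β1 in shMTHFD2 (edgeR adjusted p = 0.087), and CCNB2 ran from -0.68 to 0.21 over the 4 contrasts. CDC25C, with a level of 0.712 to 1.98 CPM, was at -1.01 between the lines with TGF-β1 (SE 0.44, edgeR adjusted p = 0.15). Exons of FOXM1, PLK1 and CDC25C overlap genes on the opposite strand. The CDK1 calls were lost without any 1 of the 4 libraries compared (edgeR adjusted p up to 0.17 without and 0.16 with TGF-β1), as was the FOXM1 call between the lines (up to 0.24). PLK1 and AURKA in shMock were lost without each library compared and in some fits without a shMTHFD2 control library (up to 0.17 and 0.20), and AURKA in shMTHFD2 without any control or shMTHFD2 library (up to 0.20). Of these calls, FOXM1 between the lines was also lost with library totals (edgeR adjusted p = 0.069), PLK1 with GC and length offsets and by DESeq2 (adjusted p = 0.10 and 0.057), and AURKA in shMTHFD2 on the compared libraries alone and by DESeq2 (adjusted p = 0.080 and 0.050).

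The spindle assembly checkpoint genes BUB1, BUB1B, TTK and MAD2L1 gave no call in any of the 4 contrasts. BUB1B (ENSG00000156970; chromosome 15, 40161023 to 40221136, plus strand), which inhibits the anaphase-promoting complex while chromosomes are unattached, stood at 5.53 and 7.30 CPM in shMock control, 6.34 and 3.16 in shMock TGF-β1, 3.01 and 3.26 in shMTHFD2 control, and 1.74 and 2.95 in shMTHFD2 TGF-β1. Both shMTHFD2 groups lay below their shMock groups, but the shMock TGF-β1 libraries stood far apart. The difference was 2.03-fold with TGF-β1 (-1.02, SE 0.36, edgeR adjusted p = 0.079) and 2.04-fold without it (-1.03, SE 0.35, edgeR adjusted p = 0.070). BUB1B passed when no filter on low counts was used, with TGF-β1 and without it (edgeR adjusted p = 0.0098 and 0.0060), and on the compared libraries alone without TGF-β1 (edgeR adjusted p = 0.018). BUB1B shares exons with the read-through gene BUB1B-PAK6 on its strand. TTK (ENSG00000112742; chromosome 6, 80003887 to 80042527, plus strand), the kinase MPS1 that starts checkpoint signalling, stood at 3.23 and 3.01 CPM in shMock control, 3.46 and 2.58 in shMock TGF-β1, 2.41 and 1.45 in shMTHFD2 control, and 2.04 and 1.02 in shMTHFD2 TGF-β1. The shMTHFD2 libraries were below the shMock libraries in both treatments, and the TGF-β1 and control libraries overlapped in both lines. TTK was at -0.98 between the lines with TGF-β1 (SE 0.41, edgeR adjusted p = 0.13) and at -0.04 for TGF-β1 in shMock. BUB1 was at -0.71 between the lines with TGF-β1, where its shMTHFD2 libraries stood at 1.07 and 3.35 CPM. MAD2L1 was at 0.31 there, the highest value of the 39, and at -0.21 without TGF-β1.

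Of the 4 genes of anaphase and mitotic exit, 1 was lower in shMTHFD2 with TGF-β1 and 1 without it, 2 were lower with TGF-β1 in shMock and 1 in shMTHFD2. UBE2C (ENSG00000175063; chromosome 20, 45812576 to 45816957, plus strand), the ubiquitin-conjugating enzyme of the anaphase-promoting complex, stood at 2.29 and 2.56 CPM in shMock control, 2.08 and 1.15 in shMock TGF-β1, 1.30 and 1.14 in shMTHFD2 control, and 0.562 and 0.356 in shMTHFD2 TGF-β1. The last group was lower than the 6 other libraries and the first higher. UBE2C had the largest fold change of the 39 between the lines with TGF-β1, 3.50-fold (-1.81, SE 0.49, edgeR adjusted p = 0.025), and it did not pass in the other contrasts (-0.58 to -1.40). Its call was lost without shMock TGF-β1 library 1 or either shMTHFD2 TGF-β1 library (edgeR adjusted p up to 0.22) and in the fit on the compared libraries alone (edgeR adjusted p = 0.052). DESeq2 gave UBE2C no adjusted p between the lines with TGF-β1. ESPL1 (ENSG00000135476; chromosome 12, 53268299 to 53293643, plus strand) stood at 5.84 and 4.83 CPM in shMock control, 2.02 and 3.04 in shMock TGF-β1, 3.29 and 2.58 in shMTHFD2 control, and 1.63 and 1.17 in shMTHFD2 TGF-β1. Its libraries did not overlap in any of the 4 contrasts. ESPL1 fell 2.11-fold with TGF-β1 in shMock and 2.09-fold in shMTHFD2 (edgeR adjusted p = 0.020 and 0.041), and was at -0.85 between the lines with TGF-β1 (SE 0.36, edgeR adjusted p = 0.14).

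CDC20, which activates the anaphase-promoting complex, stood at 4.31 and 3.60 CPM in shMock control and at 1.61 to 2.45 CPM in the 6 other libraries. It was 2.34-fold lower in shMTHFD2 without TGF-β1 (edgeR adjusted p = 0.034) and 1.94-fold lower with TGF-β1 in shMock (edgeR adjusted p = 0.042), while the lines with TGF-β1 overlapped (-0.32). The interaction of CDC20 was 0.91 (SE 0.50, edgeR adjusted p = 0.47). PTTG1, the separase inhibitor securin, overlapped in all 4 contrasts, at -0.19 to -0.62. The ESPL1 calls were lost without shMock control library 1 in both lines (edgeR adjusted p up to 0.16 in shMock and 0.21 in shMTHFD2), in shMock also without shMock TGF-β1 library 1, and in shMTHFD2 also without shMock control library 2, either shMTHFD2 control library or shMTHFD2 TGF-β1 library 2. The CDC20 call between the lines was lost without any 1 of the 4 control libraries (up to 0.19), and that with TGF-β1 without any 1 of these or shMock TGF-β1 library 2 (up to 0.24). The latter was also lost with no filter on low counts, with GC and length offsets and by DESeq2 (adjusted p = 0.057, 0.12 and 0.064), and the ESPL1 call in shMTHFD2 on the compared libraries alone (edgeR adjusted p = 0.065).

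Of the 5 genes of the centromere and kinetochore, 4 were tested and NUF2 was the single one called, between the lines with TGF-β1 and with TGF-β1 in shMTHFD2. NUF2 (ENSG00000143228; chromosome 1, 163266576 to 163355764, plus strand), a subunit of the complex that binds microtubule ends, stood at 1.93 and 2.27 CPM in shMock control, 2.34 and 1.66 in shMock TGF-β1, 1.81 and 1.60 in shMTHFD2 control, and 0.408 and 0.915 in shMTHFD2 TGF-β1. The last 2 libraries stood below the other 6. NUF2 was 3.01-fold lower between the lines with TGF-β1 (-1.59, SE 0.46, edgeR adjusted p = 0.035) and 2.56-fold lower with TGF-β1 in shMTHFD2 (edgeR adjusted p = 0.046), and was at -0.30 and -0.06 in the other contrasts. Its interaction was -1.29 (SE 0.62, edgeR adjusted p = 0.41). The first call was lost without shMock TGF-β1 library 1 or shMTHFD2 TGF-β1 library 1 (edgeR adjusted p up to 0.22), and the second without each single library other than shMTHFD2 TGF-β1 library 2 (up to 0.27). On the compared libraries alone both NUF2 calls were lost (edgeR adjusted p = 0.065 in each). DESeq2 made neither, with no adjusted p given for the first and an adjusted p of 0.060 for the second. Exons of NUF2 overlap RGS5 on the opposite strand.

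CENPE (ENSG00000138778; chromosome 4, 103105806 to 103198409, minus strand), the motor that carries chromosomes to the spindle equator, stood at 6.47 and 6.21 CPM in shMock control, 8.15 and 5.80 in shMock TGF-β1, 5.60 and 6.92 in shMTHFD2 control, and 2.20 and 4.88 in shMTHFD2 TGF-β1. The shMTHFD2 TGF-β1 libraries were the lowest, and the other 3 groups overlapped. CENPE was at -0.98 between the lines with TGF-β1 (SE 0.32, edgeR adjusted p = 0.054, passing with no filter on low counts and by DESeq2 at 0.0024 and 0.029) and at -0.02 without it, and its interaction of -0.96 had an unadjusted p of 0.044 (edgeR adjusted p = 0.38). NDC80, the partner of NUF2 in the same complex, stood at 3.46 and 1.66 CPM in shMock with TGF-β1, where shMTHFD2 had 2.50 and 2.19, and was at -0.13. CENPF, a kinetochore protein of large size, was at -0.29. CENPA stood at 1.08 and 1.28 CPM in shMock control, 0.426 and 0.631 in shMock TGF-β1, 0.648 and 0.827 in shMTHFD2 control, and 0.408 and 0.203 in shMTHFD2 TGF-β1. Its libraries were separated downward in all 4 contrasts, but it was not tested and shares exons with SLC35F6. With TGF-β1 CENPA held 8 and 11 counts in shMock and 8 and 4 in shMTHFD2. The separation there thus rests on the scaling of 2 libraries with 8 counts each.

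The chromosomal passenger complex corrects faulty attachments and consists of the kinase AURKB, the scaffold INCENP, survivin (BIRC5) and borealin (CDCA8). Only BIRC5 among these 4 was called, lower in shMTHFD2 with and without TGF-β1. BIRC5 (ENSG00000089685; chromosome 17, 78214186 to 78225636, plus strand) stood at 7.28 and 7.10 CPM in shMock control, 5.33 and 3.67 in shMock TGF-β1, 3.24 and 2.74 in shMTHFD2 control, and 2.25 and 1.63 in shMTHFD2 TGF-β1. The 4 shMTHFD2 libraries lay below the 4 shMock libraries. BIRC5 was 2.32-fold lower with TGF-β1 (-1.22, SE 0.31, edgeR adjusted p = 0.017) and 2.40-fold lower without it (-1.26, SE 0.29, edgeR adjusted p = 0.010). TGF-β1 left BIRC5 at -0.67 in shMock (edgeR adjusted p = 0.075) and -0.63 in shMTHFD2 (edgeR adjusted p = 0.17). The first call was lost without shMock TGF-β1 library 1 or shMTHFD2 TGF-β1 library 2 (edgeR adjusted p up to 0.16), and the second without either shMock control library or shMTHFD2 control library 2 (up to 0.11).

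AURKB (ENSG00000178999; chromosome 17, 8204733 to 8210600, minus strand) stood at 5.03 and 4.49 CPM in shMock control, 4.00 and 3.50 in shMock TGF-β1, 3.38 and 3.0 in shMTHFD2 control, and 2.35 and 1.27 in shMTHFD2 TGF-β1. These groups followed each other downward without overlap in any of the 4 contrasts. The difference between the lines with TGF-β1 was 2.07-fold and just missed the threshold (-1.05, SE 0.34, edgeR adjusted p = 0.057). AURKB passed there with no filter on low counts, with GC and length offsets and by DESeq2 (adjusted p = 0.022, 0.034 and 0.040). CDCA8 was at -0.96 there (SE 0.40, edgeR adjusted p = 0.14). INCENP, in contrast, was nearly level, at 0.10 and 0.15 between the lines with and without TGF-β1 and at -0.18 and -0.23 for TGF-β1, with an SE of 0.18 in each.

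The motors and microtubule binders of the spindle made up the largest group, and all 11 lay below 0 in each of the 4 contrasts. Of the 13493 tested genes, 6609, 7031, 7096 and 6846 lay below 0 in the single contrasts, in the order above. Between the lines with TGF-β1, 6 of 11 were lower (KIF23, KIF2C, TPX2, HMMR, DLGAP5 and ASPM) with a median of -0.75, and all 11 were separated. Without TGF-β1 all 11 were separated too, but only DLGAP5 passed, with a median of -0.53. With TGF-β1, 6 of 11 were lower in shMock (KIF11, NUSAP1, TPX2, DLGAP5, ASPM and PRC1, median -0.68) and 6 of 11 in shMTHFD2 (KIF11, KIF2C, TPX2, DLGAP5, ASPM and PRC1, median -0.84). Of all tested genes, 27.4 and 30.1% were separated downward between the lines with and without TGF-β1. In the 4 contrasts 8.23, 8.19, 18.1 and 11.0% were called lower.

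KIF23 (ENSG00000137807; chromosome 15, 69414246 to 69448427, plus strand), a motor of the central spindle, stood at 19.5 and 24.8 CPM in shMock control, 21.2 and 18.5 in shMock TGF-β1, 13.6 and 17.1 in shMTHFD2 control, and 10.3 and 13.4 in shMTHFD2 TGF-β1. The shMTHFD2 libraries lay below the shMock libraries, and TGF-β1 and control overlapped in shMock. KIF23 was 1.68-fold lower in shMTHFD2 with TGF-β1 (-0.75, SE 0.17, edgeR adjusted p = 0.011) and at -0.53 without it (edgeR adjusted p = 0.052), and TGF-β1 gave -0.16 in shMock (edgeR adjusted p = 0.49). TPX2 (ENSG00000088325; chromosome 20, 31739271 to 31801805, plus strand) stood at 23.5 and 24.2 CPM in shMock control, 13.9 and 11.6 in shMock TGF-β1, 18.5 and 18.5 in shMTHFD2 control, and 7.10 and 9.0 in shMTHFD2 TGF-β1. Its 4 groups were separated from each other, with both TGF-β1 groups below both control groups. TPX2 fell 1.87-fold with TGF-β1 in shMock (-0.90, SE 0.15, edgeR adjusted p = 0.00019) and 2.30-fold in shMTHFD2 (-1.20, SE 0.15, edgeR adjusted p = 2.4e-05). Between the lines TPX2 was 1.58-fold lower with TGF-β1 (-0.66, SE 0.16, edgeR adjusted p = 0.013), and at -0.37 without it (edgeR adjusted p = 0.11). Neither gene passed the interaction (edgeR adjusted p = 0.74 and 0.57).

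DLGAP5, which stabilises the fibres that hold kinetochores, stood at 2.61 and 3.80 CPM in shMock control, 1.81 and 1.09 in shMock TGF-β1, 1.34 and 1.09 in shMTHFD2 control, and 0.408 and 0.457 in shMTHFD2 TGF-β1. The first group was above and the last below all other libraries. It was lower in all 4 contrasts, 3.33-fold and 2.62-fold between the lines with and without TGF-β1 (edgeR adjusted p = 0.031 and 0.040) and 2.19-fold and 2.78-fold with TGF-β1 in shMock and shMTHFD2 (edgeR adjusted p = 0.041 in both), each close to the threshold. KIF11, the motor that pushes the spindle poles apart, stood at 11.9 and 12.7 CPM in shMock control, 7.78 and 7.29 in shMock TGF-β1, 11.2 and 10.6 in shMTHFD2 control, and 5.67 and 6.51 in shMTHFD2 TGF-β1. The control groups of both lines stood near each other, and the TGF-β1 groups stood clear below them. KIF11 fell 1.63-fold with TGF-β1 in shMock (edgeR adjusted p = 0.0047) and 1.79-fold in shMTHFD2 (edgeR adjusted p = 0.0020), and its difference between the lines was -0.31 with TGF-β1 and -0.17 without (edgeR adjusted p = 0.29 and 0.57). PRC1, the crosslinker of the central spindle, fell 1.58-fold and 1.63-fold with TGF-β1 in shMock and shMTHFD2 (edgeR adjusted p = 0.0085 and 0.010), and was at -0.58 and -0.54 between the lines (edgeR adjusted p = 0.052 and 0.059).

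ASPM, a spindle pole protein, was 1.82-fold lower between the lines with TGF-β1 (edgeR adjusted p = 0.045) and fell 1.60-fold and 2.16-fold with TGF-β1 in shMock and shMTHFD2 (edgeR adjusted p = 0.044 and 0.0050). KIF2C, which takes apart microtubule ends, was 2.21-fold lower between the lines with TGF-β1 (edgeR adjusted p = 0.033) and 1.97-fold lower with TGF-β1 in shMTHFD2 (edgeR adjusted p = 0.041). HMMR, a binder of spindle microtubules, was 2.24-fold lower between the lines with TGF-β1 (edgeR adjusted p = 0.038), and NUSAP1, which bundles microtubules, fell 1.86-fold with TGF-β1 in shMock (edgeR adjusted p = 0.010). KIF20A, a motor of cytokinesis, was at -1.01 between the lines with TGF-β1 and at -1.10 for TGF-β1 in shMTHFD2 (edgeR adjusted p = 0.11 and 0.055), and the chromosome-bound motor KIF4A was at -0.30 to -0.57 over the 4 contrasts. Exons of KIF23, KIF2C, KIF20A, KIF4A, HMMR and PRC1 overlap genes on the opposite strand, and those of NUSAP1 and PRC1 a gene on their own.

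The TGF-β1 calls of TPX2 and KIF11 held in all 8 fits that left out 1 library, in both lines. Between the lines with TGF-β1, each of the 6 calls of this group was lost without shMock TGF-β1 library 1 and without shMTHFD2 TGF-β1 library 1, with the highest edgeR adjusted p at 0.095 for KIF23, 0.12 for TPX2, 0.11 for KIF2C, 0.23 for DLGAP5, 0.26 for HMMR and 0.27 for ASPM. KIF2C was also lost without library 2 of either of these groups, DLGAP5 and HMMR without shMTHFD2 TGF-β1 library 2, HMMR and ASPM without either shMock control library, and ASPM without shMock TGF-β1 library 2 or shMTHFD2 control library 2. The DLGAP5 call without TGF-β1 was lost without any 1 of the 4 control libraries (edgeR adjusted p up to 0.28). With TGF-β1 in shMock, NUSAP1 and PRC1 were each lost without 2 of the libraries compared (up to 0.082 and 0.10), DLGAP5 without shMock control 2, shMock TGF-β1 2 or either shMTHFD2 control library (up to 0.26) and ASPM without any control or shMock library (up to 0.17). In shMTHFD2, ASPM and PRC1 were lost without shMTHFD2 control 2 or shMTHFD2 TGF-β1 1 (up to 0.059 and 0.098), DLGAP5 without 5 single libraries (up to 0.16) and KIF2C without any of the 8 (up to 0.16).

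Other settings ended some calls of the spindle genes as well. Between the lines with TGF-β1, KIF2C, HMMR, DLGAP5 and ASPM were lost on the compared libraries alone (edgeR adjusted p = 0.085, 0.081, 0.059 and 0.11), HMMR and ASPM with GC and length offsets (edgeR adjusted p = 0.060 and 0.061), and ASPM with library totals (edgeR adjusted p = 0.063). The DLGAP5 call without TGF-β1 was lost with library totals and by DESeq2 (adjusted p = 0.052 and 0.055), and its call in shMock with no filter and by DESeq2 (adjusted p = 0.061 and 0.077). DESeq2 did not call ASPM in shMock either (adjusted p = 0.061), and it gave DLGAP5 no adjusted p between the lines with TGF-β1. In shMTHFD2, KIF2C and DLGAP5 were lost on the compared libraries alone (edgeR adjusted p = 0.089 and 0.063) and by DESeq2 (adjusted p = 0.053 and 0.060). PRC1 passed between the lines with TGF-β1 under median-of-ratios scaling, with no filter and by DESeq2 (adjusted p = 0.049, 0.015 and 0.046), and without TGF-β1 with no filter and on the compared libraries alone (edgeR adjusted p = 0.020 and 0.028). KIF23 passed without TGF-β1 with no filter, with GC and length offsets and on the compared libraries alone (edgeR adjusted p = 0.0086, 0.026 and 0.038).

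Scaling on library totals added TGF-β1 calls in shMock for BIRC5, KIF20A and KIF2C (edgeR adjusted p = 0.031, 0.041 and 0.045) and in shMTHFD2 for CCNB1, UBE2C, CENPE, KIF20A and NUSAP1 (edgeR adjusted p = 0.037, 0.035, 0.040, 0.033 and 0.027).

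The last group, TOP2A, MKI67, ANLN and PIMREG, gave the most calls for its size, 3 of 4 between the lines with TGF-β1, 4 of 4 without it, 4 of 4 with TGF-β1 in shMock and 3 of 4 in shMTHFD2. Of all tested genes, 8.23, 8.19, 18.1 and 11.0% were called lower in these contrasts. The median SE of this group was 0.18 to 0.20, against 0.30 to 0.32 for all tested mitosis genes, so smaller changes could pass in it. ANLN (ENSG00000011426; chromosome 7, 36389806 to 36453791, plus strand), anillin, the scaffold of the contractile ring in cytokinesis, stood at 31.0 and 33.8 CPM in shMock control, 19.6 and 15.4 in shMock TGF-β1, 17.9 and 17.3 in shMTHFD2 control, and 6.74 and 8.44 in shMTHFD2 TGF-β1. The 2 middle groups overlapped, the first lay above and the last below them. ANLN was 2.31-fold lower in shMTHFD2 with TGF-β1 (-1.21, SE 0.16, edgeR adjusted p = 0.00020) and 1.84-fold lower without it (-0.88, SE 0.14, edgeR adjusted p = 0.00098). With TGF-β1 ANLN fell 1.85-fold in shMock (-0.89, SE 0.14, edgeR adjusted p = 0.00019) and 2.32-fold in shMTHFD2 (-1.21, SE 0.16, edgeR adjusted p = 3e-05). ANLN was the single gene called between the lines, with and without TGF-β1, in all 8 fits that left out 1 library (edgeR adjusted p up to 0.0040 and 0.016). Exons of ANLN overlap KIAA0895 on the opposite strand.

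TOP2A (ENSG00000131747; chromosome 17, 40388516 to 40417950, minus strand) stood at 38.9 and 39.7 CPM in shMock control, 27.7 and 17.7 in shMock TGF-β1, 24.0 and 23.3 in shMTHFD2 control, and 12.2 and 13.1 in shMTHFD2 TGF-β1. The order of the groups was that of ANLN, with a wide gap between the shMock TGF-β1 libraries. TOP2A was 1.80-fold lower in shMTHFD2 with TGF-β1 (-0.85, SE 0.17, edgeR adjusted p = 0.0039) and 1.66-fold lower without it (-0.73, SE 0.15, edgeR adjusted p = 0.0066), and fell 1.73-fold and 1.87-fold with TGF-β1 in shMock and shMTHFD2 (edgeR adjusted p = 0.0011 and 0.00075). Its call with TGF-β1 between the lines was lost without shMock TGF-β1 library 1 (edgeR adjusted p = 0.065), and that without TGF-β1 was lost without shMTHFD2 control library 2 (edgeR adjusted p = 0.061). MKI67 stood at 14.1 and 12.9 CPM in shMock control, 10.9 and 6.71 in shMock TGF-β1, 7.27 and 7.23 in shMTHFD2 control, and 4.08 and 3.86 in shMTHFD2 TGF-β1. The last group was below all other libraries. MKI67 was 2.22-fold and 1.86-fold lower between the lines with and without TGF-β1 (edgeR adjusted p = 0.0044 and 0.013), and fell 1.53-fold and 1.82-fold with TGF-β1 in shMock and shMTHFD2 (edgeR adjusted p = 0.034 and 0.012). Each of its 4 calls was lost without at least 1 library. With TGF-β1 this was shMock TGF-β1 1 (edgeR adjusted p = 0.081), and without it shMock control 1 or either shMTHFD2 control library (up to 0.093). For TGF-β1 it was either shMock control library or shMock TGF-β1 2 in shMock (up to 0.30) and shMTHFD2 TGF-β1 2 in shMTHFD2 (0.061).

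PIMREG, a regulator of the endocytic adaptor PICALM, differed in pattern. It stood at 3.14 and 4.88 CPM in shMock control and at 0.766 to 1.60 CPM in the 6 other libraries. PIMREG was 3.65-fold lower in shMTHFD2 without TGF-β1 (-1.87, SE 0.43, edgeR adjusted p = 0.011) and 3.31-fold lower with TGF-β1 in shMock (-1.73, SE 0.43, edgeR adjusted p = 0.0058), while the lines overlapped with TGF-β1 (-0.56, edgeR adjusted p = 0.50). Its interaction of 1.31 did not pass (SE 0.65, edgeR adjusted p = 0.42). The first call was lost without shMock control 2 or shMTHFD2 control 2 (edgeR adjusted p up to 0.13) and the second without shMock control 2 or shMock TGF-β1 2 (up to 0.067), and its exons overlap PITPNM3 on the opposite strand.

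**Figure D3:**
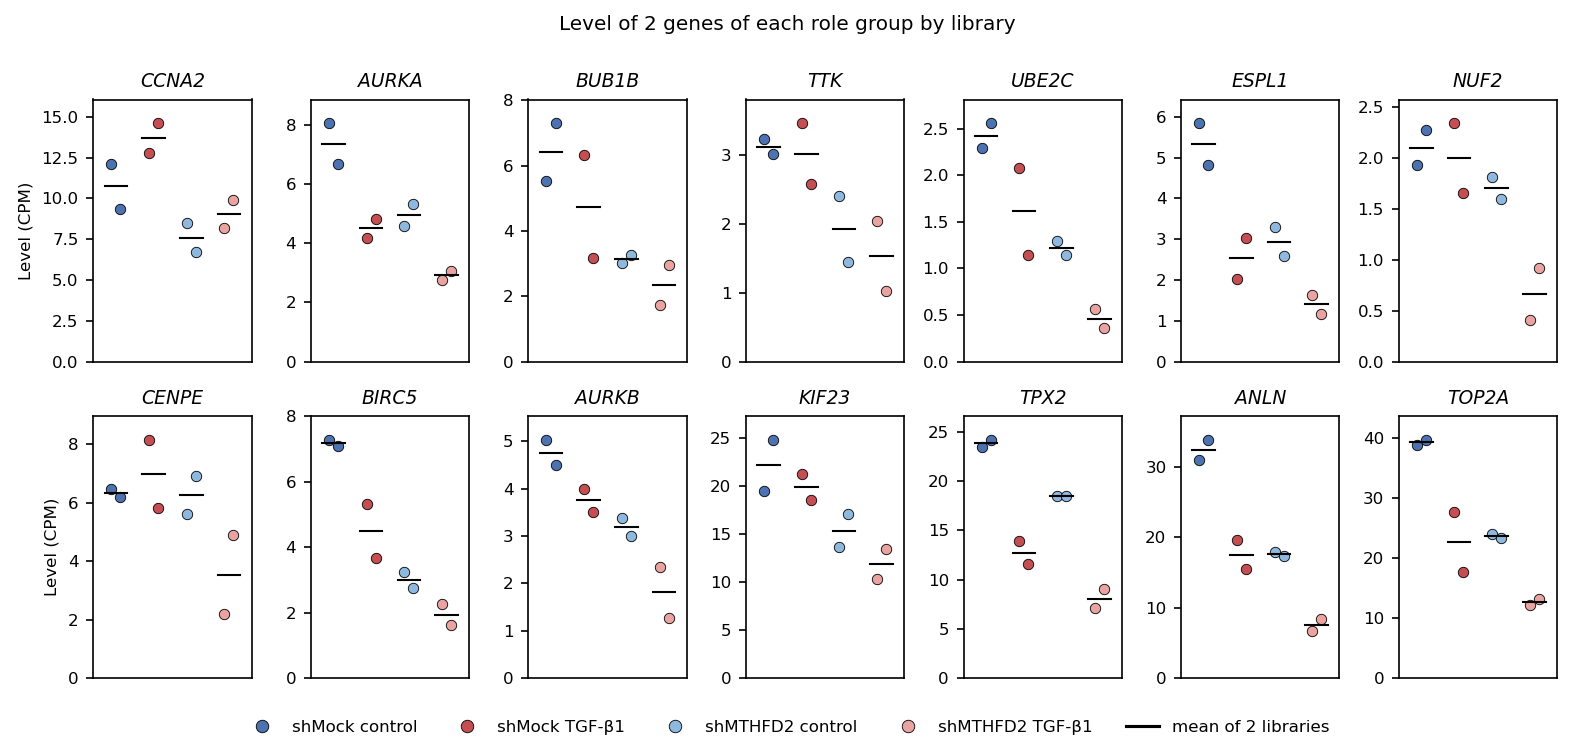
Level in CPM (linear axis from 0) of the 2 genes of each role group with the lowest adjusted p between the lines with TGF-β1; each point is 1 library, coloured by group, and the bar is the mean of the 2. ANLN steps from about 32.4 CPM in shMock control to 7.59 in shMTHFD2 TGF-β1, while CCNA2 stands highest in shMock TGF-β1.

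Many of these calls were lost when a single library was left out. The share of all tested genes called in such fits is not given. The losses can therefore not be called particular to the mitosis genes. Of the calls between the lines, 1 of 13 with TGF-β1 and 1 of 9 without it were made in all 8 fits that left out 1 library, and of the TGF-β1 calls 5 of 16 in shMock and 5 of 13 in shMTHFD2. Without shMock TGF-β1 library 1, the count between the lines with TGF-β1 was 1 of 39, without shMTHFD2 TGF-β1 library 1 it was 5, and in the other such fits it was 9 to 14. Without TGF-β1 it was 1 without shMTHFD2 control 2, 3 without shMock control 2, and 4 without library 1 of either group. The count for TGF-β1 in shMock was 6 to 10 without 1 of its own libraries, and that in shMTHFD2 was 6 without shMTHFD2 control 2 and 8 without shMock control 2. Medians moved less, staying between -0.53 and -0.83, -0.49 and -0.67, -0.42 and -0.73, and -0.66 and -0.81 in the order of contrasts above.

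Other genes of the cell cycle were read from lists outside the 40, and their counts stand against the shares of all tested genes called lower (8.23%, 8.19%, 18.1% and 11.0%) and higher (4.83%, 3.25%, 17.3% and 12.8%) in the same order of contrasts. Of 43 tested of 48 further mitosis genes, 7 were lower and 0 higher in shMTHFD2 with TGF-β1 (median -0.46), 7 and 0 without it (-0.40), 14 and 1 for TGF-β1 in shMock (-0.46), and 10 and 1 in shMTHFD2 (-0.40). Named by lowest p in the main comparison, the kinetochore genes ZWINT and DSN1 were lower by -0.69 and -0.71 (edgeR adjusted p = 0.0084 and 0.013). ZWINT stood at 17.8 and 17.8 CPM in shMock control and 8.27 and 9.76 in shMTHFD2 TGF-β1, the highest and lowest of its groups. Of 18 tested genes of replication licensing, which prepare origins before S phase, 4 were lower between the lines with and 4 without TGF-β1 (medians -0.20 and -0.50), and 10 and 6 with TGF-β1 in shMock and shMTHFD2 (-0.54 and -0.43), with none higher. The loader CDC6 was 2.15-fold and the helicase factor CDC45 2.58-fold lower in shMTHFD2 with TGF-β1 (edgeR adjusted p = 0.015 and 0.019), and CDC6 fell 1.74-fold and 2.60-fold with TGF-β1 in shMock and shMTHFD2 (edgeR adjusted p = 0.019 and 0.0011).

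Condensin and cohesin, the anaphase-promoting complex and further regulators of mitotic entry had medians nearer 0. Of 17 condensin and cohesin genes, 2 were lower between the lines with TGF-β1 (SMC4 -0.57, NCAPG -0.88, edgeR adjusted p = 0.0059 and 0.048), 2 without it, 2 were lower and 5 higher with TGF-β1 in shMock, and 3 were lower in shMTHFD2, with medians from -0.11 to 0.04. Of 17 genes of the anaphase-promoting complex, 2 were lower between the lines with TGF-β1 (CDC27 -0.43, CDC23 -0.46, edgeR adjusted p = 0.0051 and 0.0092) and 1 without it, 3 were lower and 2 higher with TGF-β1 in shMock, and 1 was lower and 2 higher in shMTHFD2, with medians from -0.03 to 0.05 over the 4 contrasts. Of 13 further regulators of mitotic entry, 2 were lower and 1 higher between the lines with TGF-β1, 1 was lower without it, 3 were lower and 2 higher with TGF-β1 in shMock, and 1 lower and 1 higher in shMTHFD2, with medians from -0.13 to -0.03. The one higher between the lines was the phosphatase CDC25B, which activates CDK1, at 145 and 158 CPM in shMTHFD2 TGF-β1 against 106 and 120 in shMock TGF-β1 (0.42, SE 0.09, edgeR adjusted p = 0.0051), and it fell 1.70-fold and 1.40-fold with TGF-β1 in the 2 lines. ARPP19, which restrains a phosphatase that opposes CDK1, was lower (-0.40, edgeR adjusted p = 0.0054).

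Upstream of mitosis, 17 regulators of the DREAM and E2F system, the repressors and activators that time cell cycle genes, gave 4 lower and 1 higher between the lines with TGF-β1 (median 0.06), 2 and 1 without it, 1 and 3 with TGF-β1 in shMock, and 1 and 2 in shMTHFD2. RB1, the retinoblastoma protein, and E2F3 were lower (-0.47 and -0.57, edgeR adjusted p = 0.0027 and 0.0037), and both were higher with TGF-β1 in shMock (0.51 and 0.65, edgeR adjusted p = 0.00033 and 0.00030). E2F3 was also higher with TGF-β1 in shMTHFD2 (edgeR adjusted p = 0.021), a call lost with library totals (edgeR adjusted p = 0.089). Of 8 G1 cyclins and kinases, 2 were lower between the lines with TGF-β1 and 3 without it, 2 were lower and 1 higher with TGF-β1 in shMock, and 2 lower and 2 higher in shMTHFD2. CCND1, the cyclin of G1 progression, stood at 416 and 424 CPM in shMock control, 282 and 250 in shMock TGF-β1, 214 and 217 in shMTHFD2 control, and 143 and 143 in shMTHFD2 TGF-β1. Its 4 groups did not overlap, in the same order as the summed mitosis genes for the first and last group. CCND1 was 1.86-fold and 1.95-fold lower between the lines with and without TGF-β1 (edgeR adjusted p = 1e-05 and 5.4e-06), and its calls held in all 8 fits that left out 1 library. Its kinase CDK6 was lower between the lines with TGF-β1 (-0.32, edgeR adjusted p = 0.049) and higher with TGF-β1 in shMock and shMTHFD2 (0.99 and 0.41, edgeR adjusted p = 2e-06 and 0.0075). The interaction of CDK6 did not pass in the main fit (edgeR adjusted p = 0.15). It passed with no filter on low counts (edgeR adjusted p = 0.00094) and by DESeq2 (adjusted p = 0.0096).

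Among 7 tested CDK inhibitors, CDKN2B, the inhibitor p15 of the G1 kinases and a known TGF-β target, stood at 44.9 and 38.5 CPM in shMock control, 214 and 227 in shMock TGF-β1, 29.4 and 28.1 in shMTHFD2 control, and 163 and 148 in shMTHFD2 TGF-β1. The TGF-β1 libraries stood far above the control libraries in both lines, and the shMTHFD2 libraries below the shMock libraries. CDKN2B rose 5.28-fold with TGF-β1 in shMock and 5.41-fold in shMTHFD2 (edgeR adjusted p = 4.2e-11 and 6.2e-11), and was 1.42-fold lower in shMTHFD2 with TGF-β1 and 1.45-fold lower without it (edgeR adjusted p = 0.0016 and 0.0023). The list as a whole gave 1 lower and 0 higher between the lines with TGF-β1 (median -0.06), 2 and 0 without it, and 1 and 1 with TGF-β1 in each line.

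The counts of these lists depended on single libraries as well. Without shMTHFD2 TGF-β1 library 1 the lower count between the lines with TGF-β1 was 1 for the further mitosis genes and 0 for condensin and cohesin, the anaphase-promoting complex and the entry regulators. It was 1 for replication licensing without library 1 of either TGF-β1 group, and 1 for the DREAM and E2F regulators without shMTHFD2 TGF-β1 library 2. Without shMock control library 2 the lower count between the lines without TGF-β1 was 1 for the further mitosis genes and 0 for replication licensing, the anaphase-promoting complex and the DREAM and E2F regulators. The last was also 0 without shMTHFD2 control library 2, as was that of the entry regulators. Condensin and cohesin gave 0 there without shMock control 1 or either shMTHFD2 control library, and the G1 list gave 1 without shMTHFD2 control 2. For TGF-β1 in shMock, leaving out shMock control 2 took replication licensing to 1, the further mitosis genes to 4 (also without shMock TGF-β1 2), the anaphase-promoting complex to 1 and the higher calls of condensin and cohesin to 3 (also without shMock control 1 or shMock TGF-β1 1). For TGF-β1 in shMTHFD2, leaving out shMTHFD2 control 2 took replication licensing to 3 and the further mitosis genes to 3 (also without shMTHFD2 TGF-β1 1). Among the smaller counts, the 1 DREAM and E2F gene higher between the lines with TGF-β1 was 0 without any 1 of the 4 TGF-β1 libraries, and the 1 higher without TGF-β1 was 0 without shMock control 2 or shMTHFD2 control 1. The 1 lower with TGF-β1 was 0 in shMock without either control library and in shMTHFD2 without control 2 or TGF-β1 2. In shMTHFD2 the 2 higher genes of the anaphase-promoting complex were 0 without any 1 of the 4 shMTHFD2 libraries.

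Between the lines with TGF-β1, the calls of RB1, CDKN2B and CCND1 held in all 8 fits that left out 1 library. In the same contrast, without shMTHFD2 TGF-β1 library 1 the calls of ZWINT, SMC4, NCAPG, CDC27, CDC23, ARPP19, CDK6 and CDC6 were lost, without its library 2 those of DSN1, NCAPG, CDC25B, E2F3, CDK6 and CDC45, without shMock TGF-β1 library 1 those of NCAPG, CDC23, CDC25B, CDK6 and CDC45, and without its library 2 those of DSN1, CDK6 and CDC6 (edgeR adjusted p up to 0.29). NCAPG was lost without either shMock control library too, and with library totals, GC and length offsets and the compared libraries alone (edgeR adjusted p = 0.064, 0.074 and 0.10). CDK6 was lost with library totals and with GC and length offsets (edgeR adjusted p = 0.12 and 0.077), and CDC45 on the compared libraries alone (edgeR adjusted p = 0.057). With TGF-β1 in shMock the CDC6 call was lost without shMock control 2 or shMock TGF-β1 1 (edgeR adjusted p up to 0.18), and that of CDK6 in shMTHFD2 without shMTHFD2 control 1 or shMTHFD2 TGF-β1 2 (up to 0.096). Exons of SMC4, NCAPG, CDC27, CDC23, CCND1 and CDK6 overlap genes on the opposite strand.

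**Figure D4:**
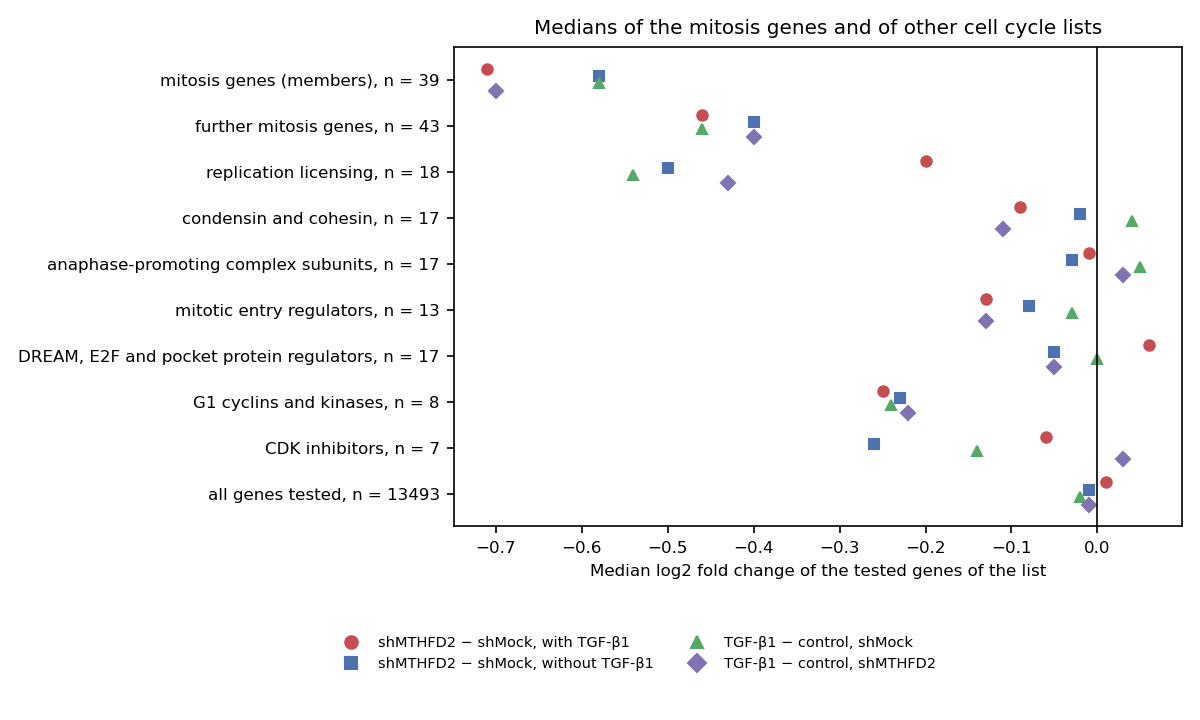
Median log2 fold change of the tested genes of each list (rows) in the 4 contrasts between groups (symbols), with all 13493 tested genes at the bottom. The mitosis genes have the lowest medians, -0.58 to -0.71, and condensin and cohesin, the anaphase-promoting complex and the DREAM regulators lie near 0.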

How the data were processed

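RNA of 8 libraries was measured by bulk mRNA sequencing. Per the submitters' processing notes the tools were STAR 2.7.1a and DESeq2 1.32.0 on GRCh38. Those sources name no read counter, annotation, strand setting or filter. The authors' deposited table holds raw counts per Ensembl gene, although its name speaks of FPKM, and no row lacks a gene ID. Symbols were found for 60650 of the 60666 IDs in the supplied name table, and positions for 58420 in GENCODE 29. Without known strand use, reads of genes with overlapping exons cannot be told apart.

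Computed here: 13493 genes passed a minimum mean of 1 CPM and entered edgeR 4.0.16's quasi-likelihood test (R 4.3.3, limma 3.58.1) with TMM scaling, all 8 libraries in 1 fit on 4 residual degrees of freedom (common biological coefficient of variation 8.79%). Benjamini-Hochberg adjustment covered all of these, and calls needed an adjusted p under 0.05. Each SE is the log2 fold change divided by the root of F, an approximation. There were 5 comparisons: the lines with and without TGF-β1, TGF-β1 in each line, and the interaction. The code of the test was also run on simulated counts with the same spread for all genes. That run does not show how reliable the calls are here. Replicates of a group differed by more than counting error (chi-square over its degrees of freedom 6.47 to 11.2). The floor of 3 counts covers counting error only. Alternatives were median-of-ratios factors, library totals, no filter, DESeq2 1.42.0, the compared libraries alone, a replicate block, GC and length offsets (alone and with the block), and leaving out each library.

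The genes and lists were chosen with earlier results of these data known. In each role group the 2 genes with the lowest adjusted p between the lines with TGF-β1 are given in full, others by level, fold change or count. From each other list up to 2 genes past the threshold with the lowest p are named. PIMREG, DLGAP5, KIF11, FOXM1, MKI67 and CDC20 were given more values after these were seen.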

Additional observations from a re-analysis of the deposited data

How the results depend on the processing

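The number of mitosis genes called lower between the lines with TGF-β1 was 13. It was 7 in a fit on the compared libraries alone, 1 to 14 when 1 library was left out, and 9 to 17 under the other alternatives. Without TGF-β1 it was 9, with 1 to 11 when 1 library was left out and 7 to 12 otherwise. For TGF-β1 it was 16 in shMock, with 6 to 16 when 1 library was left out and 12 to 19 otherwise, and 13 in shMTHFD2, with 8 in a fit on the compared libraries alone, 6 to 12 when 1 library was left out and 9 to 18 otherwise. No mitosis gene was called higher, and none passed the interaction, in any fit run. DESeq2 gave the mitosis genes no adjusted p for the interaction, which could not be fitted on the compared libraries alone. Between the lines with TGF-β1 DESeq2 gave an adjusted p to 31 of the mitosis genes, and to 37 without TGF-β1. With TGF-β1 it gave none to UBE2C, DLGAP5 and NUF2. A fit that leaves out 1 library keeps 1 library in its group, which is then assumed to vary like the others. Beside these counts, the share of all tested genes is given only for the main fit and for library totals. Differences between the replicates of a group were nearly uncorrelated between groups over all tested genes (-0.03 to 0.09). This does not settle whether libraries with the same replicate number were paired. With a replicate block the counts were 14, 10, 15 and 10 in the same order (CCNA2 lost and AURKB and CENPE gained, KIF23 gained, DLGAP5 lost, and DLGAP5, KIF2C and NUF2 lost), and 9, 9, 14 and 12 with the replicate block and GC and length offsets. Scaling on library totals moved the median of all genes to 0.10, 0.06, -0.16 and -0.12 and the share of genes called lower to 5.31, 5.48, 29.1 and 18.2%, with higher and lower calls at 1338 and 717 against 652 and 1110 between the lines with TGF-β1, 755 and 740 against 438 and 1105 without it, 1570 and 3932 against 2333 and 2443 for TGF-β1 in shMock, and 1222 and 2455 against 1725 and 1489 in shMTHFD2. The medians of the mitosis genes minus those of all genes were then -0.72, -0.56, -0.56 and -0.70, against -0.72, -0.57, -0.56 and -0.70 with TMM. With 7 to 865 counts per gene and library, a median SE of 0.32 limits what could be called.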
